A study of Mus musculus with 4 samples.

Results

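The fatty acid elongases and desaturases are the enzymes that lengthen and unsaturate fatty acids. The genes examined were Elovl1, Elovl2, Elovl3, Elovl5, Elovl6 and Elovl7, the stearoyl-CoA desaturases Scd1 and Scd2, and the fatty acid desaturases Fads1 and Fads2. These 10 genes were chosen by name among the 19938 genes with a value, and each was measured by 1 probe set annotated with that gene alone.

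Messenger RNA was measured on 4 whole-transcript Affymetrix arrays, 1 for each genotype, in livers of 8-week-old mice labelled male. The wild-type pool carried no knockout. The MDR2-/- pool lacked MDR2, the phosphatidylcholine exporter of the bile canaliculus encoded by Abcb4, whose loss causes cholestasis and liver fibrosis. The GHR-/- pool lacked the growth hormone receptor, and the double knockout pool (GHR-/-MDR2-/-) lacked both. Per the series design, RNA of 3 livers was pooled for each genotype, so a pool gives an average of its animals and no spread between them. The sources used here give neither the strain nor the knockout alleles and the cells they affect. The question, from the series title, was how resistance to growth hormone bears on cholestatic liver fibrosis.

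Fatty acid synthase ends its work at palmitate. Elovl6 lengthens palmitate to stearate, Elovl1, Elovl3 and Elovl7 mainly lengthen saturated and monounsaturated chains further, and Elovl5 and Elovl2 lengthen polyunsaturated chains taken from the diet. Scd1 and Scd2 place the first double bond in palmitate and stearate, while Fads2 and Fads1 act in turn on the route from the essential fatty acids to arachidonate and docosahexaenoate. In liver, Scd1, Elovl5, Elovl6, Fads1 and Fads2 are known targets of the lipogenic transcription factor SREBP-1c, and Elovl3 is known as an enzyme with higher expression in male than in female mouse liver.

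The arrays gave intensities on a linear scale from 6 to 22355, with a median of 100 over the rows with 1 gene symbol. No background level or detection call was used here, so 100 is a working limit set at that median and not a measured background. Whether a value below it lies above background was not tested. Ghr was 4944 in wild type and 4485 in the MDR2-/- pool, against 1395 in the GHR-/- and 935 in the double knockout pool. Abcb4 was 1120 and 1346 in the wild-type and GHR-/- pools, against 663 and 689 in the MDR2-/- and double knockout pools. The sources used here do not say which exons the probes of Ghr and Abcb4 lie in. The 12 hepatocyte markers all lay between 2424 and 15283 in every pool. The GHR-/- pool stood apart from its label: Xist, the RNA that silences an X chromosome in female cells, was 1400 there and 16 to 18 in the other pools, while the Y-linked Eif2s3y, Kdm5d and Uty lay between 212 and 951 in all 4 pools. Differences of the GHR-/- pool from wild type are therefore given below beside the double knockout against MDR2-/- difference, where Xist was 17 and 18. The double knockout against GHR-/- difference and every value drawn from all 4 arrays also include the GHR-/- pool. The part of female RNA in them was not tested. The MDR2-/- against wild-type difference does not include that pool, with Xist at 18 and 16.

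Promoter sequence is shown for the elongases whose level differed most in the double knockout pool and that the RefSeq promoter table (build GRCm38.p6) holds: Elovl5 and Elovl6, which were lowest there, and Elovl7, which was highest there. Each run is the 250 bases before the annotated start, on the plus strand, 5′ to 3′, and capitals mark a match to a searched motif. Elovl5 lies at chr9:77917115-77917364, Elovl6 at chr3:129532136-129532385 and Elovl7 at chr13:108214154-108214403.
Elovl5: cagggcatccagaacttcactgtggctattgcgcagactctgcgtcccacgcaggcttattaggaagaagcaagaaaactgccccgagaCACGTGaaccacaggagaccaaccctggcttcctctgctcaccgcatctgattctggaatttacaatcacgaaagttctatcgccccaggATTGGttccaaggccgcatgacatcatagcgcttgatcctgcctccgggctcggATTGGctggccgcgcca
Elovl6: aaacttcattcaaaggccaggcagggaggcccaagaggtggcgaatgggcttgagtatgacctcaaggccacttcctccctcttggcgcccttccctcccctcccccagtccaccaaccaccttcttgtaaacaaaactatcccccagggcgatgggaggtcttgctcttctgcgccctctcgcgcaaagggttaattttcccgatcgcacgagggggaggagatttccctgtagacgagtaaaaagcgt
Elovl7: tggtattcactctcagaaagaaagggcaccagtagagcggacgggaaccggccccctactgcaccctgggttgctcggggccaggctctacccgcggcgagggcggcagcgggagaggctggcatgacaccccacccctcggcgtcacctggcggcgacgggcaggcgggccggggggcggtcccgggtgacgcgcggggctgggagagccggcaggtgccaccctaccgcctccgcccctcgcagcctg
The motifs were the sterol regulatory element core TCACNCCAC, the CCAAT box, the E-box CACGTG, the STAT5 element TTCNNNGAA and the PPAR response element, each searched on both strands, and no matches overlapped. The Elovl5 window held the E-box, 161 to 156 bases before the start, and the CCAAT box on the other strand (ATTGG) at 71 to 67 and at 17 to 13 bases before it. The Elovl6 and Elovl7 windows held none of these letters. Over all 32851 promoters of the same length, 33.8% held the CCAAT box, 6.02% the E-box, 7.02% the STAT5 element, 1.05% the sterol element and 0.0335% the PPAR element. The table held promoters of 6 of the 10 genes. In the order of the chromosome 19 annotation, Fads3, Fads2 and Fads1 neighbour each other, as do Scd3, Scd2, Scd4 and Scd1, and Elovl3 lies on the same chromosome.

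Across the 4 pools, Elovl3, Elovl7 and Scd2 varied most, Elovl6, Elovl5 and Fads1 to a middle degree, and Elovl1, Elovl2, Scd1 and Fads2 least. The log2 range, highest minus lowest array, was 6.87 for Elovl3, 3.87 for Elovl7 and 2.96 for Scd2. Only 0.0372%, 0.39% and 0.985% of the 10764 genes past the level filter had a larger one. For Elovl6, Elovl5 and Fads1 the range was 1.29, 0.91 and 0.81. For Elovl2, Scd1, Elovl1 and Fads2 it was 0.38, 0.32, 0.31 and 0.29, below the median gene's 0.44.

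**Figure D1:**
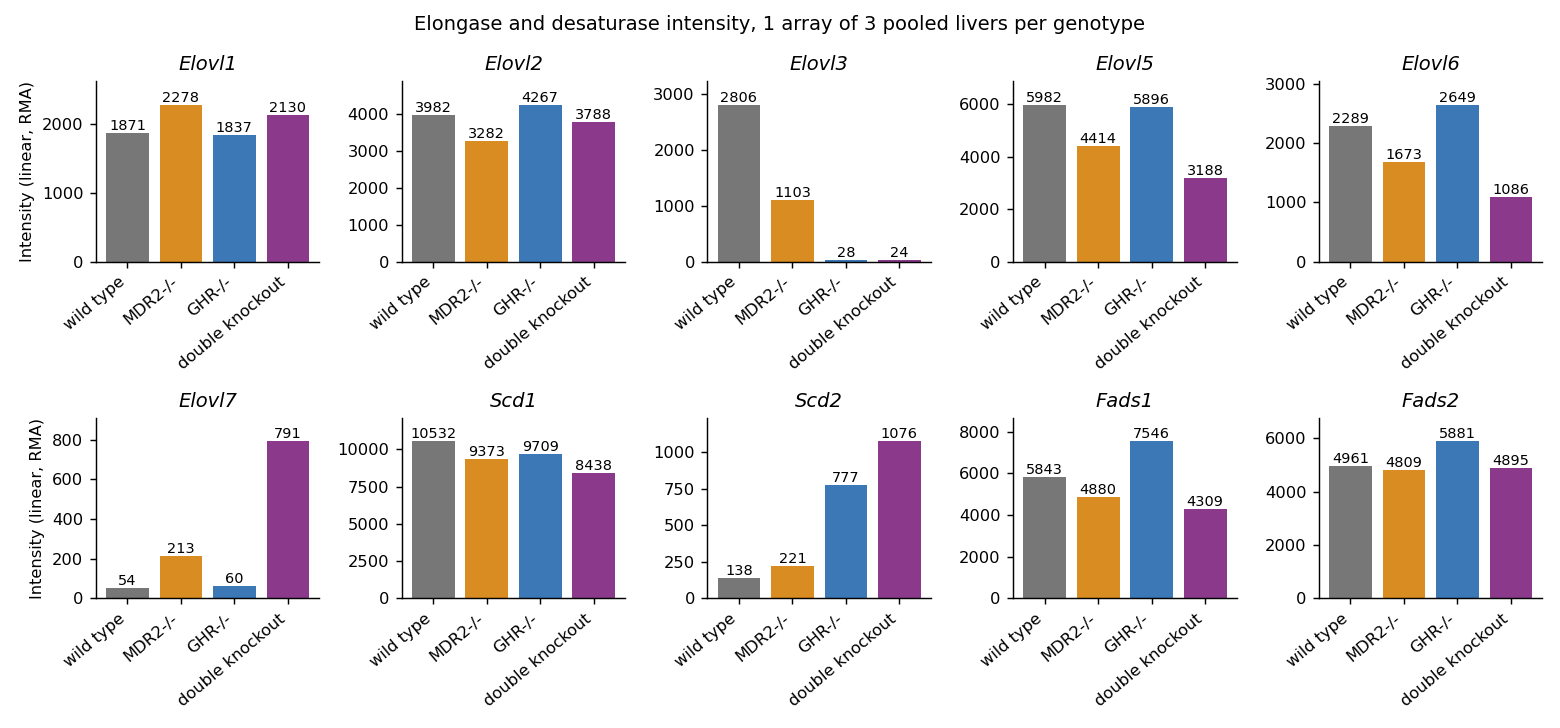
Linear RMA intensity (vertical axis, each panel on its own scale from 0) of the 10 genes in the wild-type, MDR2-/-, GHR-/- and double knockout pools, 1 bar per array, with no error since each genotype is 1 array. Elovl3 is at 28 and 24 without the growth hormone receptor, Scd2 is highest in those 2 pools at 777 and 1076, and Elovl7 reaches 791 in the double knockout pool.

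Elovl3, which makes saturated and monounsaturated very long chains, was the elongase that fell with loss of the growth hormone receptor. Its intensity was 2806 in wild type, 1103 in MDR2-/-, 28 in GHR-/- and 24 in double knockout liver. Both pools without the receptor lay below the intensity of 100, and both pools with it far above. The log2 difference was -6.65 between the GHR-/- and wild-type pools and -5.52 between the double knockout and MDR2-/- pools, the latter with Xist at 17 and 18. Ranked from the lowest difference, Elovl3 was number 3 of 10052 genes in the former and number 2 of 10524 in the latter. Since 28 and 24 lie below 100, and a background level was not measured, these sizes are approximate. In bulk liver, fewer cells of a type and less RNA per cell cannot be told apart.

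The fit over both backgrounds used limma with growth hormone receptor and MDR2 status as additive factors over the 4 arrays and Benjamini-Hochberg adjustment over 10764 genes. It called Elovl3 lower with receptor loss, with a log2 effect of -6.08 (SE 0.28, adjusted p = 0.0043 in limma). Among all genes 0.316% were called lower. Elovl3 was among the tested genes only through the pools with the receptor, so its entry depended on the contrast tested. With 1 residual degree of freedom per gene the call rested on the level filter: without it limma called no gene for either effect, and the adjusted p of Elovl3 was 0.52 (1828 genes had an unadjusted p under 0.05 for receptor loss and 2928 for MDR2 loss).

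With MDR2 loss alone Elovl3 was 2.54-fold lower, number 33 of 10258 from the lowest. The double knockout and GHR-/- pools, at 24 and 28, were both below 100, and no fold between them is given. In limma its MDR2 effect was -0.78 (SE 0.28, adjusted p = 0.18), which missed the threshold, and none of the 10 genes was called lower with MDR2 loss, where 0.762% of all genes were.

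Male-biased liver genes, of which Elovl3 is a known example, were lower in the same pools. Of 13 measured genes on a list without Elovl3, 13 were at least 1.5-fold lower in the GHR-/- than in the wild-type pool. In the double knockout against the MDR2-/- pool 10 of the 12 past the level filter were. Among all genes 2.48% and 3.89% were lower. In the GHR-/- pool 4 of the 13 were under 100, and in the double knockout pool 2. Those of them that passed the filter through the pool with the receptor could not count as higher. Xist was 1400 in the GHR-/- pool, and the part of female RNA in its male-biased values was not tested. The steroid dehydrogenase Hsd3b5 was 3877, 367, 21 and 20 in the wild-type, MDR2-/-, GHR-/- and double knockout pools. Cyp4a12a, a fatty acid hydroxylase, was 7891, 7139, 140 and 181. In limma 7 of the 13 were called lower with receptor loss, where 0.316% of all genes were.

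Female-biased genes were counted in the same pairs of pools. At least 1.5-fold higher were 11 of 12 past the filter in the GHR-/- against the wild-type pool. In the double knockout against the MDR2-/- pool 5 of 7 were higher and 1 was lower. Among all genes 4.26% and 7.17% were higher. In the wild-type pool 9 of the 14 measured were under 100, and also 9 in the MDR2-/- pool. Those of them that passed the filter through the pool without the receptor could not count as lower. In limma 3 of 12 tested were called higher with receptor loss, where 0.204% of all genes were: Cyp2b9, Cyp39a1 and Abcd2. Cyp2b9 was 71, 51, 5952 and 1162 in the wild-type, MDR2-/-, GHR-/- and double knockout pools. In the same order Cyp39a1 was 266, 226, 1359 and 1549, and Abcd2 was 280, 146, 2041 and 1473. All 3 were also higher in the double knockout than in the MDR2-/- pool. Cyp2b13, at 15, 14, 2545 and 28, was high in the GHR-/- pool alone. The part of female RNA in the values of that pool, where Xist was 1400, was not tested.

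Scd2, a desaturase of the same reaction as Scd1 that is low in adult liver and known from brain, skin and fetal liver, rose with loss of the growth hormone receptor. Its intensity was 138 in wild type, 221 in MDR2-/-, 777 in GHR-/- and 1076 in double knockout liver. Both pools without the receptor were above both pools with it. The difference was 5.63-fold between the GHR-/- and wild-type pools and 4.87-fold between the double knockout and MDR2-/- pools, number 22 of 10052 and number 19 of 10524 from the highest. In limma the effect of receptor loss was 2.39 on the log2 scale (SE 0.14, adjusted p = 0.0076), where 0.204% of genes were called higher; without the level filter the adjusted p was 0.52.

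The MDR2-/- pool was also higher in Scd2 than the wild-type pool, 1.60-fold, and the double knockout higher than the GHR-/- pool, 1.38-fold. The limma MDR2 effect was 0.57 (SE 0.14, adjusted p = 0.097) and missed the threshold.

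Scd1, the main stearoyl-CoA desaturase of adult liver, stood at 10532, 9373, 9709 and 8438 in the wild-type, MDR2-/-, GHR-/- and double knockout pools. Its largest difference, double knockout against wild type, was 1.25-fold. In limma the Scd1 effects were -0.13 for receptor loss (SE 0.14, adjusted p = 0.72) and -0.19 for MDR2 loss (SE 0.14, adjusted p = 0.47). The other genes of the cluster stayed below 100: Scd3 lay between 24 and 32 and Scd4 between 17 and 23. The sources used here do not say whether probes of these similar genes share sequence.

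Markers of fat cells were examined because Scd2 is also an adipocyte gene. Adipoq, which encodes the hormone adiponectin, lay between 17 and 20 in all pools, Lep between 25 and 27 and Plin1 between 64 and 87, all below 100. The exceptions on that list were Fabp4 and Pparg, above 100 in every pool. Fabp4 was 151, 119, 155 and 118 in the wild-type, MDR2-/-, GHR-/- and double knockout pools. Pparg, a nuclear receptor of fat storage that hepatocytes can also express, was 406, 491, 822 and 930 in the same order. The summed intensity of the 8 measured adipocyte markers ranged from 776 in wild type to 1239 in the double knockout pool, and 6 of the 8 were under 100 in every pool. Without Pparg the other 7 summed to 370, 340, 350 and 309 in the wild-type, MDR2-/-, GHR-/- and double knockout pools. The part of fat cells in the Scd2 values was not tested.

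Elovl7, an elongase of saturated very long chains with little expression in normal liver, rose with loss of MDR2. Its intensity was 54 in wild type, 213 in MDR2-/-, 60 in GHR-/- and 791 in double knockout liver. Both pools with MDR2 were below 100 and both without it above, with the double knockout pool the higher. It was 3.71-fold higher in the double knockout than in the MDR2-/- pool, number 42 of 10524 from the highest, whereas the GHR-/- and wild-type pools, at 60 and 54, were both below 100. In limma the MDR2 effect was 2.85 (SE 0.40, adjusted p = 0.035), where 2.99% of genes were called higher. Elovl7 was among the tested genes only through the pools without MDR2, so its entry depended on the contrast tested. The call of Elovl7 was lost without the level filter (adjusted p = 0.33), with a filter at the 75th percentile (adjusted p = 0.063) and with trend and robust settings (adjusted p = 0.13). The effect of receptor loss, 1.02 (SE 0.40, adjusted p = 0.38 in limma), missed the threshold.

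The difference with receptor loss was larger by 1.74 on the log2 scale where MDR2 was absent, number 104 by size of 10764 genes. This comparison of differences has no residual degree of freedom and was not tested, and 2 of its 4 values were below 100.

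Most markers of bile duct cells were higher in the pools where Elovl7 was higher. Over 10 measured cholangiocyte markers the summed intensity was 1239 in wild type, 1791 in MDR2-/-, 1366 in GHR-/- and 3111 in double knockout liver. Of these, 8 of 10 were at least 1.5-fold higher in the double knockout than in the MDR2-/- pool. In the MDR2-/- against the wild-type pool 6 of the 8 past the filter were. Among all genes 7.17% and 6.11% were higher. In the wild-type pool 8 of the 10 markers were under 100. Those of them that passed the filter through the MDR2-/- pool could not count as lower. Tspan8 was 34, 66, 33 and 281, and the chloride channel gene Cftr was 23, 36, 22 and 141. Other markers of the list had another pattern: Krt23, a keratin, was 38, 171, 222 and 340, with the GHR-/- pool 5.84-fold above wild type, and the transcription factor gene Onecut2 was 617, 659, 635 and 611.

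Macrophage markers, 11 measured, summed to 3373, 7994, 4645 and 11247 in the wild-type, MDR2-/-, GHR-/- and double knockout pools. Much of this was Lyz2, a lysozyme gene, at 847, 2879, 977 and 5243, without which the sums were 2526, 5115, 3668 and 6004. At least 1.5-fold higher were 8 of the 9 past the filter in the MDR2-/- against the wild-type pool, and 5 of 10 in the double knockout against the MDR2-/- pool. There the Kupffer cell markers Clec4f, at 628 against 885, and Vsig4, at 1426 against 1578, were lower. Among all genes 6.11% and 7.17% were higher in these pairs. In the wild-type pool 5 of the 11 macrophage markers were under 100. Those of them that passed the filter through the MDR2-/- pool could not count as lower. The summed level of 12 stellate cell and fibroblast markers was 6324, 8942, 7651 and 11381, with 6 of 12 at least 1.5-fold higher in the MDR2-/- against the wild-type pool, and 2 higher and 1 lower in the double knockout against the MDR2-/- pool. The part of these cells in the Elovl7 values was not tested.

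**Figure D2:**
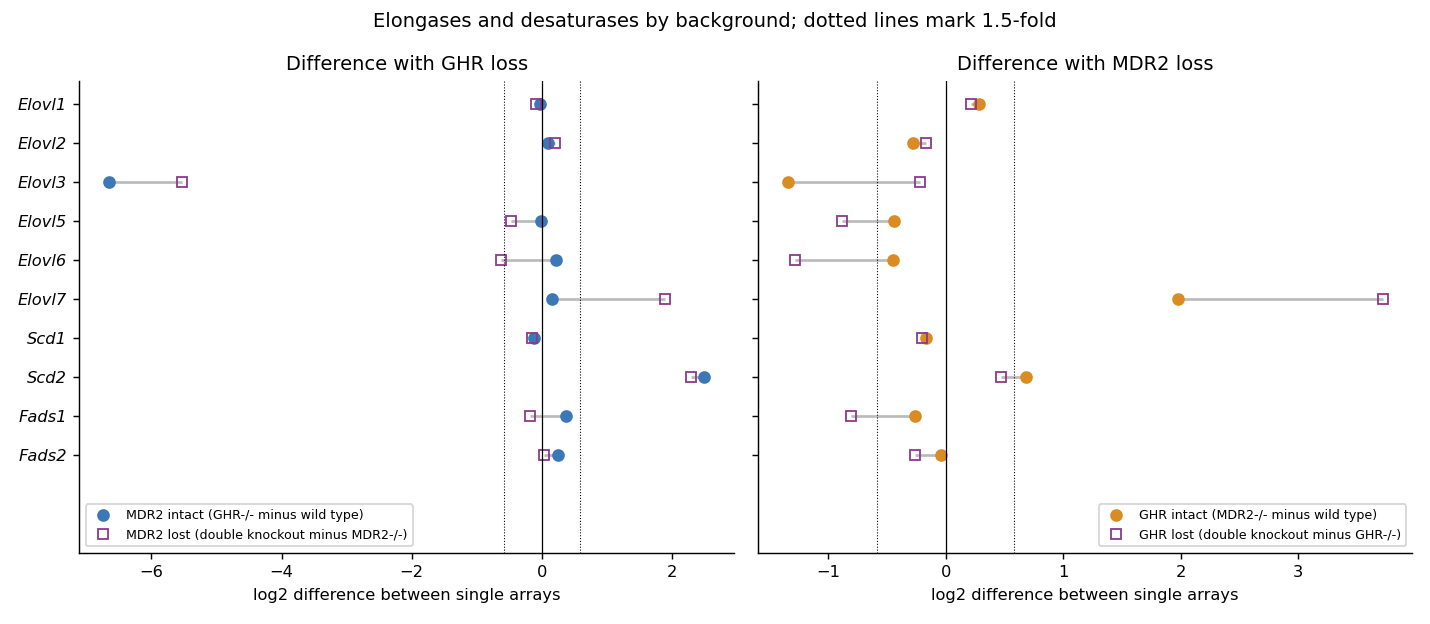
Log2 differences between single arrays (horizontal axis) for each of the 10 genes, on the left with receptor loss where MDR2 is intact (filled circles) or lost (open squares), on the right with MDR2 loss where the receptor is intact or lost, with dotted lines at 1.5-fold. Elovl3 and Scd2 differ with receptor loss in both backgrounds, and Elovl7, Elovl6, Elovl5 and Fads1 have their larger MDR2 difference where the receptor is lost.

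Elovl6, the enzyme that makes stearate from palmitate, was lowest in the double knockout pool. Its intensity was 2289 in wild type, 1673 in MDR2-/-, 2649 in GHR-/- and 1086 in double knockout liver. Both pools without MDR2 were below both pools with it. The double knockout pool was 2.44-fold lower than the GHR-/- pool, where Xist was 1400. It was 2.11-fold lower than the wild-type pool and 1.54-fold lower than the MDR2-/- pool. The MDR2-/- pool was 1.37-fold lower than wild type. The GHR-/- pool was 1.16-fold higher than wild type. With receptor loss the log2 difference was thus 0.21 where MDR2 was intact and -0.62 where it was lost, a gap of -0.83, number 582 by size of 10764 genes. The limma MDR2 effect was -0.87 (SE 0.23, adjusted p = 0.10) and missed the threshold.

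Elovl5, which lengthens polyunsaturated chains, was also lowest in the double knockout pool. It was 5982 in wild type, 4414 in MDR2-/-, 5896 in GHR-/- and 3188 in double knockout liver. The wild-type and GHR-/- pools differed by 1.01-fold, and both pools without MDR2 were below them. The double knockout pool was 1.88-fold lower than wild type, 1.85-fold lower than the GHR-/- pool and 1.38-fold lower than the MDR2-/- pool. The MDR2-/- pool was 1.36-fold lower than wild type. In limma the MDR2 effect was -0.66 (SE 0.17, adjusted p = 0.099), which missed the threshold.

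Fads1, the later desaturase on the way to arachidonate, was 5843 in wild type, 4880 in MDR2-/-, 7546 in GHR-/- and 4309 in double knockout liver. Here the GHR-/- pool was the highest and the double knockout pool the lowest, 1.75-fold apart. The MDR2-/- pool was 1.20-fold below wild type. The GHR-/- pool was 1.29-fold above wild type, whereas the double knockout pool was 1.13-fold below the MDR2-/- pool. The limma MDR2 effect was -0.53 (SE 0.18, adjusted p = 0.16). Fads2, the earlier desaturase of that route and a neighbour of Fads1, was 4961, 4809, 5881 and 4895 in the wild-type, MDR2-/-, GHR-/- and double knockout pools, so that only the GHR-/- pool was apart, 1.19-fold above wild type, while the double knockout pool was 1.02-fold above the MDR2-/- pool. Its limma effects were 0.14 for receptor loss (SE 0.14, adjusted p = 0.74) and -0.15 for MDR2 loss (SE 0.14, adjusted p = 0.56).

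Elovl2, which acts late in the making of docosahexaenoate, was 3982, 3282, 4267 and 3788 in the wild-type, MDR2-/-, GHR-/- and double knockout pools. No pair differed by 1.5-fold, and the lowest value was that of the MDR2-/- pool. Elovl1, a widely expressed elongase of saturated very long chains, was 1871, 2278, 1837 and 2130 in the same order, with both pools without MDR2 above both pools with it and the MDR2-/- pool 1.22-fold above wild type. In limma the MDR2 effect was 0.25 for Elovl1 (SE 0.14, adjusted p = 0.34) and -0.23 for Elovl2 (SE 0.14, adjusted p = 0.39).

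Counted at 1.5-fold with the higher array at an intensity of 100 or more, between 2 and 5 of the 10 genes differed in each comparison. In the GHR-/- against the wild-type pool 1 of 9 was higher (Scd2) and 1 lower (Elovl3), where 4.26% and 2.48% of all genes were. In the double knockout against the MDR2-/- pool 2 of 10 were higher (Scd2 and Elovl7) and 2 lower (Elovl3 and Elovl6), against 7.17% and 3.89% of all genes. In the MDR2-/- against the wild-type pool 2 of 10 were higher (Elovl7 and Scd2) and 1 lower (Elovl3), against 6.11% and 3.59%.

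In the double knockout against the GHR-/- pool 1 of 9 was higher (Elovl7) and 3 were lower (Elovl5, Elovl6 and Fads1), against 9.99% and 9.94% of all genes. In the double knockout against the wild-type pool 2 of 10 were higher (Scd2 and Elovl7) and 3 lower (Elovl3, Elovl5 and Elovl6), against 13.7% and 7.6%. With 10 genes, nothing particular to them is read from these counts. The comparisons share arrays and are not independent of each other.

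The median log2 difference over the genes counted was 0.10 in the GHR-/- against the wild-type pool and -0.12 in the double knockout against the MDR2-/- pool, beside 0.10 and 0.06 over all genes. It was -0.21 in the MDR2-/- against the wild-type pool, beside -0.04 over all genes. The difference between the backgrounds exceeded the robust SD over all genes, 0.32 on the log2 scale, for 5 of the 10 (Elovl3, Elovl5, Elovl6, Elovl7 and Fads1), and for 33.1% of all genes. For Elovl3 this value rests on 28 and 24, both below 100, and so mostly repeats its difference between the MDR2-/- and wild-type pools, and for Elovl7 it rests on 54 and 60.

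Some of the genes that supply palmitate and regulate lipogenesis were lower in the pools without MDR2, more of them in the double knockout pool. Of 17 measured, 7 were at least 1.5-fold lower in the MDR2-/- pool than in wild type and 7 in the double knockout than in the MDR2-/- pool, with none higher in either. Between the double knockout and GHR-/- pools, the latter with Xist at 1400, 11 of 17 were lower. Among all genes 3.59%, 3.89% and 9.94% were lower in these pairs. The list medians were -0.40, -0.38 and -1.02 on the log2 scale. In the GHR-/- against the wild-type pool 2 of 17 were lower and none higher, where 2.48% of all genes were lower.

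The carboxylase gene Acacb was 635, 285, 547 and 120 in the wild-type, MDR2-/-, GHR-/- and double knockout pools. In limma it was called lower with MDR2 loss (-1.67, SE 0.26, adjusted p = 0.041), where 0.762% of all genes were. No other of the 17 was called for either effect. Thrsp, a regulator of lipogenesis, was 3449, 2796, 2274 and 113. Mlxipl, which encodes the carbohydrate-responsive factor ChREBP, was 1345, 1117, 1587 and 608. Fasn, the synthase that makes palmitate, was 4193, 2720, 4563 and 1490. Acaca, another carboxylase gene of the list, differed less, at 1071, 841, 1156 and 826. It was 1.30-fold lower in the double knockout than in the wild-type pool. In Acacb, Thrsp, Mlxipl and Fasn the double knockout pool was lowest, as in Elovl6, Elovl5, Fads1 and Scd1. Against the wild-type pool Acacb, Thrsp, Mlxipl and Fasn were more than 2-fold lower there, as was Elovl6 (2.11-fold). Elovl5, Fads1 and Scd1 were 1.88-fold, 1.36-fold and 1.25-fold lower.

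**Figure D3:**
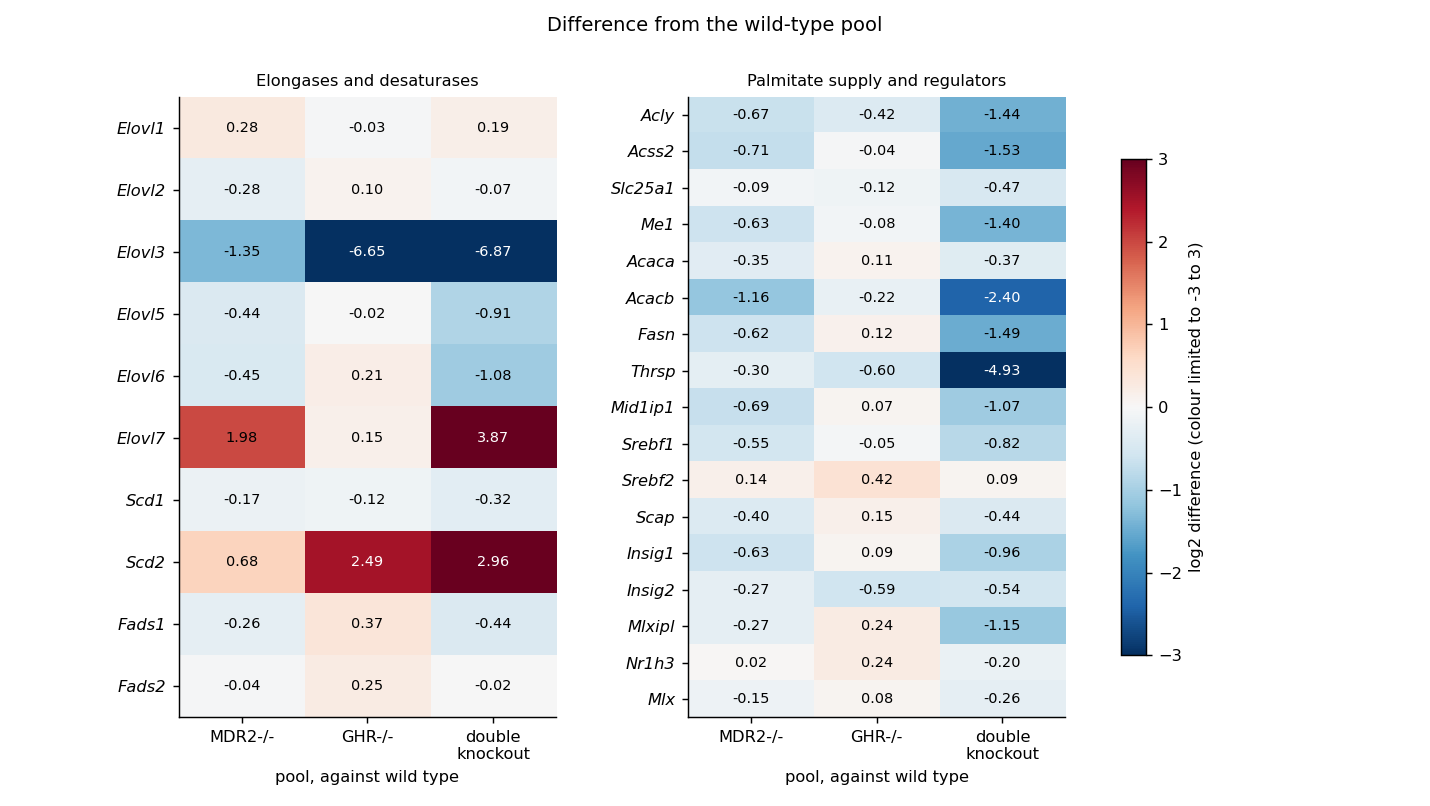
Log2 difference from the wild-type array in the MDR2-/-, GHR-/- and double knockout pools (columns) for the 10 elongases and desaturases (left) and 17 genes of palmitate supply and its regulators (right), with the value printed in each cell and red for higher, blue for lower, colour limited to -3 to 3. Fasn, Acacb and Thrsp are at -1.49, -2.40 and -4.93 in the double knockout pool, Elovl6 and Elovl5 at -1.08 and -0.91, and Scd1 at -0.32.

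The partner enzymes of the elongation cycle, which complete each round after the elongase, differed little. Of 7 measured, 5 passed the level filter, and none of these differed by 1.5-fold in any of the 5 comparisons or was called by limma. Hsd17b12, the ketoacyl reductase of the cycle, was 2123, 2035, 1770 and 1426 in the wild-type, MDR2-/-, GHR-/- and double knockout pools.

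Other desaturases and their electron donors numbered 10 measured and 7 past the filter. Of these 7, limma called 1 higher with MDR2 loss, against 2.99% of all genes, and none in another direction. This was Fads3, which desaturates sphingoid bases, at 110, 192, 142 and 368 in the wild-type, MDR2-/-, GHR-/- and double knockout pools (effect 1.09, SE 0.18, adjusted p = 0.046). Thus Fads3 was highest in the double knockout pool while its neighbours Fads1 and Fads2 were not. Cyb5b, an outer mitochondrial cytochrome b5, was lowest in the double knockout pool, at 1650 against 3332 in the GHR-/- pool.

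Acyl-CoA synthetases, which activate fatty acids before they are lengthened, gave no limma call among 8 tested. Acsl4, which prefers arachidonate, was 967, 1209, 936 and 2273 in the wild-type, MDR2-/-, GHR-/- and double knockout pools. Acsm1, a medium-chain synthetase, was 1550, 1090, 1077 and 391.

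Of 11 peroxisomal genes of chain shortening, which finishes docosahexaenoate synthesis, limma called 1 higher and 1 lower with receptor loss. Among all genes 0.204% were called higher and 0.316% lower. The higher one was Abcd2, a peroxisomal carrier of very long-chain acyl-CoA that is also on the female-biased list (effect 3.10, SE 0.17, adjusted p = 0.0062). Scp2, which holds a peroxisomal thiolase, was 5793, 5112, 1884 and 1960 in the wild-type, MDR2-/-, GHR-/- and double knockout pools (effect -1.50, SE 0.15, adjusted p = 0.028).

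Enzymes that place the products in phospholipids and ceramides gave 1 call each, both higher with MDR2 loss, where 2.99% of all genes were. Of 11 tested acyltransferases and phospholipases this was Lpcat2, an acyltransferase known from inflammatory cells, at 60, 178, 118 and 357 in the wild-type, MDR2-/-, GHR-/- and double knockout pools. Of 4 tested ceramide synthases it was Cers5, at 166, 288, 212 and 432. Cers6, which prefers palmitate, was 342, 406, 625 and 680, higher in both pools without the receptor but not called.

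For the genes with a log2 range of at least 1, the 3 genes of nearest profile were found by Euclidean distance between log2 values centred over the 4 arrays, among 1367 others. Elovl3 was nearest to the pseudogene Serpina4-ps1 (distance 0.63), Cyp4a12a (1.08) and Hsd3b5 (1.47), Elovl6 to Adtrp (0.093), Dpys (0.11) and Paqr3 (0.12), Elovl7 to Cd24a (0.13), Rragd (0.34) and Gm609 (0.37), and Scd2 to Abcb1a (0.66), Slco1a4 (0.66) and Cyp39a1 (0.70). Cd24a, a surface glycoprotein, was 106, 470, 126 and 1722 in the wild-type, MDR2-/-, GHR-/- and double knockout pools, higher than 100 in each. Dpys, an enzyme of pyrimidine breakdown, was 1658, 1195, 1792 and 717. Slco1a4, an organic anion carrier, was 681, 966, 2526 and 2975. With 4 arrays such distances describe these pools only.

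**Figure D4:**
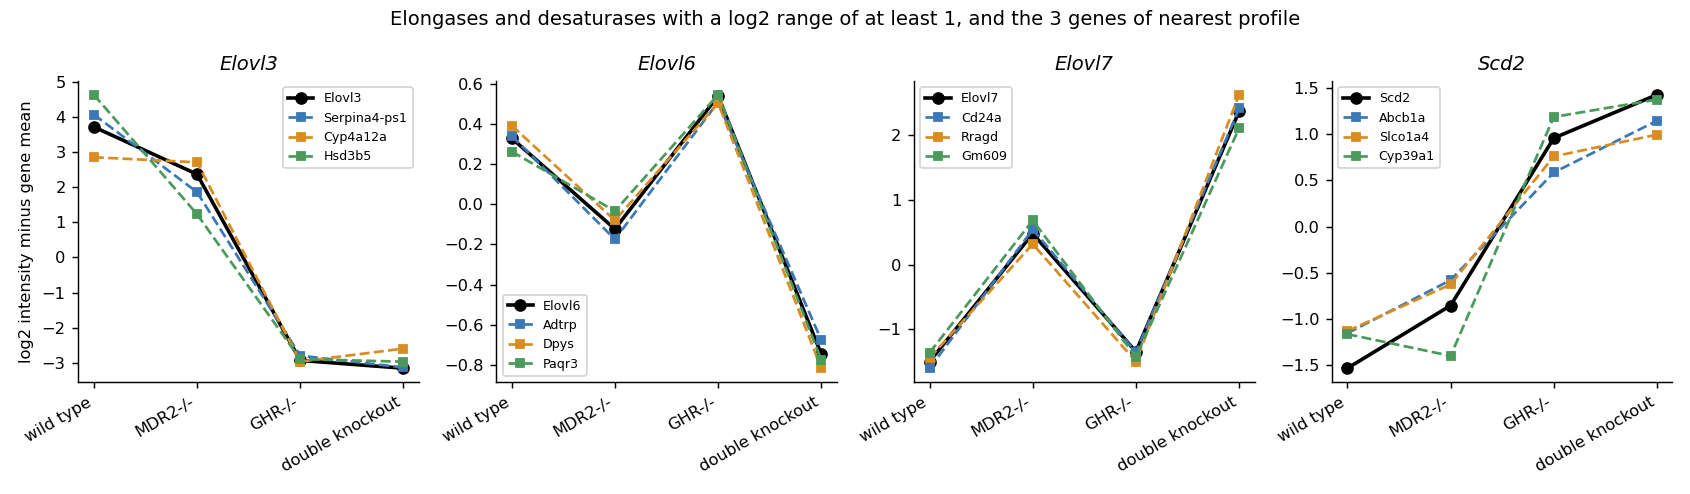
Log2 intensity minus the gene's own mean over the 4 arrays (vertical axis) in the wild-type, MDR2-/-, GHR-/- and double knockout pools for Elovl3, Elovl6, Elovl7 and Scd2 (black lines and circles) and, dashed, the 3 genes of nearest profile to each. The Elovl7 line and that of Cd24a lie at a distance of 0.13, while the genes nearest to Scd2 lie at 0.66 to 0.70.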

How the data were processed

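Per the submitters' processing notes the deposited intensity values came from RMA in Affymetrix Expression Console 1.1. They are whole numbers and linear, so they were log2-transformed with the authors' normalization kept. Of 35556 rows, 21789 had exactly 1 gene symbol in GEO's platform annotation, 1621 several and 12146 none; only the first were used. A gene with several rows (999 of 19938) took the row with the highest mean. Depth does not apply to arrays, and their number, 4, limits the precision.

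Pairwise log2 differences have no replicate check. A gene was counted at 1.5-fold only if the higher array reached 100, the median of the rows used. The only test was limma 3.58.1 in R 4.3.3 (lmFit and eBayes, additive factors, 1 residual and 4.34 prior degrees of freedom, threshold 0.05). The code was also run on simulated data with purely additive effects and the same noise for every gene. These data differ from that setting, so the run does not show that the calls hold here. The residual of the limma fit holds any non-additivity. Replicates would be pools; p-values measure only the spread left by the additive model.

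Named genes are the 10 studied, the targeted and sex-linked genes, up to 3 genes per list with the largest difference and the nearest profiles. Uty, Fasn, Acaca, Adipoq, Lep, Fabp4, Scd3, Onecut2, Clec4f and Vsig4 were named after their values were seen. Genes and lists were chosen with earlier results of these data known. The PPAR motif was a direct repeat spaced by 1 base. Promoters were searched with Python 3.11.15. Protein sequences were not used here.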

Additional observations from a re-analysis of the deposited data

How the results depend on the processing

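No paired analysis was possible because each genotype is 1 array. Under cyclic loess, centring on the median or on hepatocyte markers and the mean of all rows, none of the 200 calls at 1.5-fold changed, and 4 of the 200 pairwise differences changed sign, all of Elovl2 or Fads2 and under 0.11 in size. The mean of all rows could change none of these, since each of the 10 genes has 1 row. Centring on the median shifted the median gene by -0.12 (log2) for the GHR-/- against the wild-type pool, where the share of higher among all 1.5-fold calls was 41.5% in place of 63.2% (51.4% with cyclic loess); in the double knockout against the MDR2-/- pool it was 49.3% in place of 64.9%. At 2-fold, 1 in place of 2 of the 10 genes was higher in the MDR2-/- against the wild-type pool, 1 in place of 2 lower in the double knockout against the MDR2-/- pool, and 1 in place of 3 lower in the double knockout against the GHR-/- pool. With a filter at the 75th percentile (329), 0 in place of 2 were higher in the MDR2-/- against the wild-type pool.

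In limma, the genes called higher with receptor loss numbered 22, and 13 with cyclic loess, 14 with median centring and 11 with the filter at 329; those lower numbered 34, and 21 with that filter. Called higher with MDR2 loss were 322, and 57 with that filter; called lower were 82, and 37 with cyclic loess, 50 with median centring, 134 with the mean of all rows and 12 with that filter. Without a level filter limma called 0 genes in all 4 cases, and 0 of the 10 genes (1828 and 2928 genes had an unadjusted p under 0.05), with 1.41 prior degrees of freedom. Elovl7 was lost there, with the filter at 329 and with trend and robust settings, which each left 0 of the 10 called higher with MDR2 loss. Apart from the fit without a level filter, the adjusted p of Elovl3 for receptor loss was at most 0.016 and that of Scd2 at most 0.016. Elovl3 and Elovl7 have values under 100, whose height over background was not measured.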
